A study of Mus musculus with 6 samples.

Results

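The genes described are 10 members of the bone morphogenetic protein (BMP) pathway, measured in mouse B-cell acute lymphoblastic leukaemia: the ligand gene Bmp7, the receptor genes Bmpr1a and Bmpr2, the signal transducer genes Smad1, Smad5 and Smad3, the inhibitor gene Smad7, and the target genes Id1, Id2 and Id3. They were taken by gene name from each of the 6 deposited files and are 10 of 37732 genes found in both gene tables used by the authors. RNA-seq had been made from C57BL/6 bone marrow cells that were positive for GFP and for B220, the B-cell form of CD45. The leukaemia was started by transplanting lineage-negative fetal liver cells made to express N-Myc and a GFP reporter, which all groups share. Mice in the middle stage of disease were fasted for 1 day or for 2 days, or were fed normally as the control. The number, age and sex of the mice behind each library are not given in the labels.

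BMPs are secreted proteins of the transforming growth factor beta (TGF-beta) family. A BMP dimer brings together type I receptors such as the product of Bmpr1a and type II receptors such as that of Bmpr2, and the type I kinase phosphorylates SMAD1 and SMAD5, which enter the nucleus with SMAD4. SMAD3 carries signals of TGF-beta and activin receptors, and SMAD7 blocks receptors of both branches. Id genes are classical BMP targets, and their products bind E proteins, the helix-loop-helix transcription factors that B-cell development needs, and keep them off DNA.

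Each group has 2 libraries, called run 1 and run 2 here. The squared difference between 2 libraries was divided by its sampling variance, and its median over genes by the median that read sampling alone gives, so that 1 means sampling noise only. This ratio was 1.35 to 1.38 for runs of a group (1.09 to 1.1 on unique reads) and 6.93 to 21.3 for libraries of different groups (5.89 to 19.3). The labels title the runs as replicates, and the series text counts 3 samples, each duplicated; whether a group's runs come from separate mice is not stated. Because they lie this close to sampling noise, each group is counted as 1 sample here, differences between groups have no replicate check, and no p-value is given. Total gene reads were 19368326 to 45862844 per library. Levels are CPM (gene reads scaled to a common library size), and folds are log2 ratios of the mean CPM of both runs after adding 0.1 CPM. A gene is called higher or lower, and said to have risen or fallen, where the mean and each run differed by at least 1.5-fold in the same direction. Where a library was left out, only the mean and the run that kept both groups had to pass, which is a looser rule. Intervals of ratios are exact binomial 95% intervals on the summed reads and cover counting error only. The cells were checked with 5 marker genes of the leukaemia. These were the B-lineage genes Cd79a, Cd79b and Pax5, the CD45 gene Ptprc, and Mycn, the gene of the N-Myc that started the disease. Their summed level was between 3679 and 3941 CPM in every library. Mycn alone gave 2090 to 2281 CPM, most of each sum, so the sum cannot check B-lineage identity. The log2 folds of Cd79a, Cd79b and Pax5 were 0.02, 0.42 and −0.18 for 2 days against control. None of the 5 was called in any of the 3 comparisons.

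All 10 genes passed the filter on low counts, which kept 14236 genes in all. At 1 day against control, 1 of the 10 was lower (Smad1) and 0 were higher, where 7.09% of all genes tested were called, 4.3% higher and 2.79% lower. At 2 days against control, 2 were lower (Smad1 and Bmp7) and 0 were higher, where 19.6% of all genes were called, 9.52% higher and 10.1% lower. At 2 days against 1 day the same 2 genes were lower and 0 were higher, with 14.2% of all genes called, 5.63% higher and 8.59% lower. The 10 genes as a group were thus called about as often as genes at large, and the results below rest on the single genes.

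**Figure D1:**
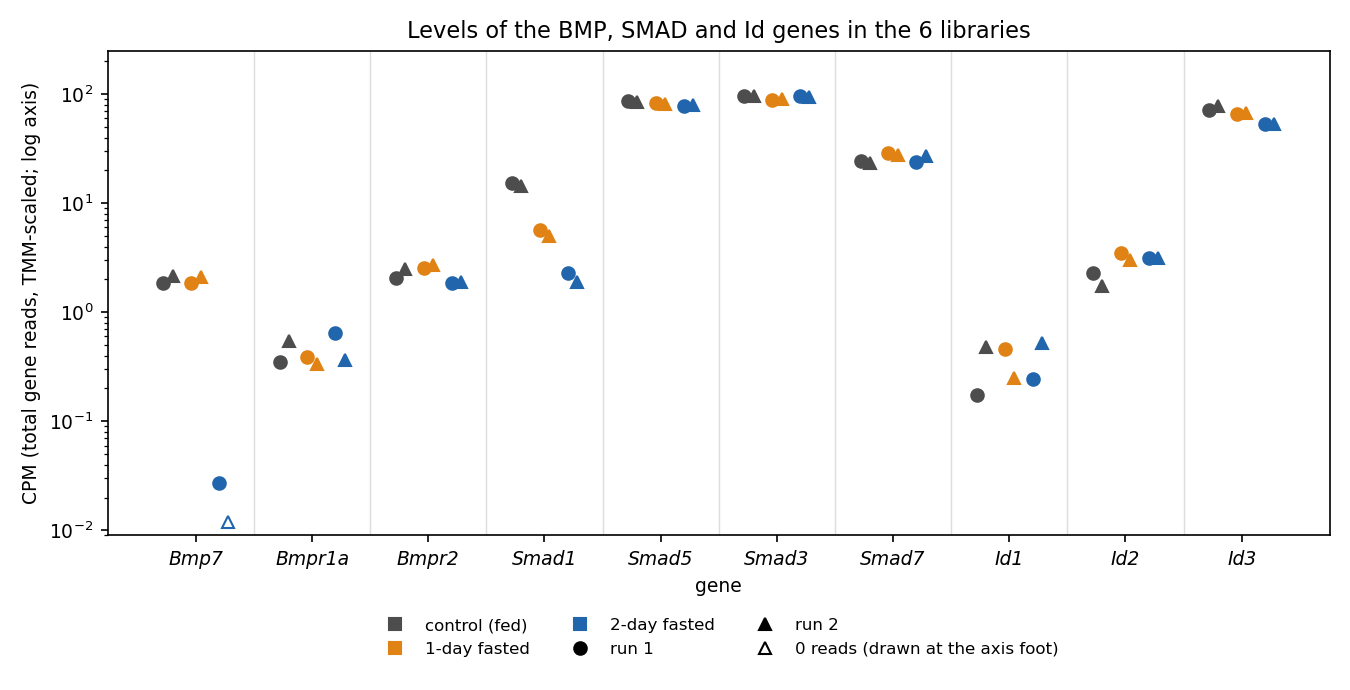
Level of each of the 10 genes in the 6 libraries, in CPM on a log axis, ordered from ligand and receptors to SMADs and Id genes; circles are run 1 and triangles run 2, with no error bars. Smad1 steps down at each fasting time, Bmp7 drops to 1 and 0 reads at 2 days, and Smad3, Smad5 and Smad7 stay on nearly the same line in all groups.

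Compared per length of exon, with the authors' RPKM (reads scaled by exon length and by mapped reads), the 10 genes spanned a wide range in control. Id3 was the most abundant, at 37.1 and 40.4 RPKM in runs 1 and 2, above 88.6% of all genes tested. It was followed by Smad3 at a mean of 16.3 RPKM, Smad5 at 10.8, Smad7 at 4.95, Smad1 at 2.38 and Id2 at 1.48. Bmpr2 at 0.592 and Bmp7 at 0.468 RPKM followed close together, with 151 and 134 reads. Id1 at 0.261 and Bmpr1a at 0.0657 RPKM came last, with Bmpr1a above only 2.7% of genes. With fasting the order moved in the lower part of the range. At 1 day Smad1 was at 0.868 RPKM, below Id2 at 2.41 RPKM. At 2 days Smad1 was at 0.369 and 0.311 RPKM, which overlaps Id1 at 0.198 and 0.432 RPKM. Bmp7 was then last, at 0.00635 and 0 RPKM.

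RNA of other marrow cells was present and differed between groups. Beside the counts below, 4.3% of all genes tested were called higher and 2.79% lower at 1 day against control. At 2 days against control these shares were 9.52% and 10.1%, and at 2 days against 1 day 5.63% and 8.59%. The summed level of 12 neutrophil genes was 623 and 653 CPM at 1 day and 845 and 861 CPM at 2 days, against 969.7 and 985 CPM in control, with 0 and 1 of the 12 called higher and 4 and 1 lower. That of 10 erythroid genes was 567 and 579 CPM at 1 day and 1006 and 1003 CPM at 2 days, against 446 and 456 CPM in control, with 0 and 5 of the 10 called higher. That of 10 monocyte and dendritic genes was 120 and 118 CPM at 1 day and 189.7 and 188 CPM at 2 days, against 128 and 124 CPM in control. Of the 9 that were tested, 1 and 3 were higher and 0 and 1 lower. The summed level of 10 stromal and endothelial genes was 55.1 and 52.9 CPM at 1 day and 41.3 and 43.6 CPM at 2 days, against 54.4 and 52.9 CPM in control. Nearly all of it was Pecam1. Only 3 of the 10 were tested, and none was called. Beside Pecam1 these were Cdh5 and Cxcl12, at means of 0.767 and 0.589 CPM in control. The others did not pass the filter, and Kdr, an endothelial receptor gene, had no reads in control. The 6 megakaryocyte genes summed to 2.31 and 2.68 CPM at 1 day and 1.62 and 1.21 CPM at 2 days, against 1.91 and 1.55 CPM in control, with 1 of 2 tested genes lower at 2 days. The 7 stem and progenitor genes summed to 3.47 and 3.49 CPM at 1 day and 1.33 and 1.90 CPM at 2 days, against 1.997 and 2.43 CPM in control. Of their 4 tested genes, Gata2 was higher at 1 day and Gfi1b lower at 2 days against control (log2 folds 1.43 and −1.68), and 3 were lower at 2 days against 1 day. Immediate early genes, which respond to stimuli and handling, summed to 1074 and 1083 CPM at 1 day and 943 and 955 CPM at 2 days, against 611 and 613 CPM in control. Of 13 tested, 10 were higher and 0 lower at 1 day, and 5 higher and 2 lower at 2 days. Their median log2 fold was 0.93 at 1 day and 0.22 at 2 days. At 2 days Fos and Fosb were lower (−1.06 and −1.57), while Ier2 and Nr4a1 were higher (both 3.51). The part of these cells or of handling in the results for Smad1, Bmp7 and the Id genes was not tested, and in bulk RNA fewer cells that make a transcript cannot be told apart from less of it per cell.

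Bmp7 encodes a secreted BMP that acts through BMP type II receptors. It lies on chromosome 2 from 172868012 to 172940321 (minus strand, mm10). Its level was 1.87 and 2.17 CPM in control, 1.86 and 2.09 CPM at 1 day, and 0.0271 and 0 CPM at 2 days. In reads the runs of a group summed to 134 for control, 146 after 1 day and 1 after 2 days. Both 2-day libraries lie far below the other 4, while the control and 1-day libraries overlap. Bmp7 fell at 2 days against control, with a ratio of summed reads of 0.00866 (interval 0.000218 to 0.0491). Its log2 fold of −4.22 (−3.95 in run 1 and −4.51 in run 2) is set by the 0.1 CPM added to levels of 1 and 0 reads, is smaller in size than the ratio and its interval, and was −1.57 with 1 CPM added. Against 1 day the ratio was 0.00893 (0.000225 to 0.0505). At 1 day against control the log2 fold was −0.03 and the ratio 0.97 (0.762 to 1.24). Reads spliced across its exon junctions numbered 15 in control, 16 at 1 day and 0 at 2 days, and 100% of Bmp7 reads in the libraries that had any were uniquely placed. The level was low in every group.

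The receptor genes were scarce. Bmpr1a, a type I BMP receptor gene, had 31 control reads, 26 reads at 1 day and 31 reads at 2 days. Its levels were 0.347 and 0.549 CPM in control, 0.386 and 0.338 CPM at 1 day, and 0.649 and 0.368 CPM at 2 days. The 3 groups overlap, and the ratio to control was 0.746 (0.426 to 1.3) at 1 day, and 1.16 (0.682 to 1.97) at 2 days, so both intervals hold a change in either direction. Without 2-day run 2, Bmpr1a was called higher at 2 days against 1 day, at a log2 fold of 0.70. From 35.5% to 50% of its summed reads in a group fell in introns, and the annotated gene Gm17110 on the opposite strand shares exon bases with it. Bmpr2, a type II BMP receptor gene, was at 2.04 and 2.48 CPM in control, 2.56 and 2.70 CPM at 1 day, and 1.87 and 1.90 CPM at 2 days. The 1-day libraries are the highest and the 2-day libraries the lowest, with control between them. The log2 folds were 0.21 at 1 day against control, −0.25 at 2 days against control and −0.46 at 2 days against 1 day, none of them called. The ratio to control was 1.14 (0.915 to 1.42) at 1 day and 0.807 (0.623 to 1.04) at 2 days, and both intervals include no change. The ratio at 2 days against 1 day was 0.709 (0.554 to 0.904).

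Smad1 encodes a receptor-regulated SMAD of the BMP branch and lies on chromosome 8 from 79338395 to 79399518 (minus strand, mm10). Its level was 15.3 and 14.4 CPM in control, 5.71 and 4.997 CPM at 1 day, and 2.27 and 1.90 CPM at 2 days. The libraries of the 3 groups do not overlap, and the order is control above 1 day above 2 days in both runs. Smad1 fell at 1 day, 2.80-fold below control in summed reads (interval 2.48 to 3.16). At 2 days it fell further, 6.88-fold below control (5.69 to 8.39) and 2.46-fold below 1 day (2 to 3.05). The log2 folds in run 1 and run 2 were −1.41 and −1.51 at 1 day against control, −2.70 and −2.87 at 2 days against control, and −1.29 and −1.35 at 2 days against 1 day. In reads the gene had 385 at 1 day and 120 at 2 days, against 958 in control. The share of its reads in introns was 11.7% at 1 day and 11.7% at 2 days, against 11.5% in control. These close shares rest on 45 and 14 intron reads, against 110 in control, and the 2-day runs gave 13.1% and 8.33%. Of all genes tested, 0.4% had a lower log2 fold than Smad1 at 1 day against control and 1.6% at 2 days against control.

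Smad5 encodes the other main SMAD of the BMP branch, closely related to SMAD1, and lies on chromosome 13 from 56703010 to 56742377 (plus strand, mm10). Its level was 87.3 and 84.3 CPM in control, 83.4 and 81.9 CPM at 1 day, and 78.0 and 79.5 CPM at 2 days. The libraries are close together, and the folds were small, with log2 values of −0.05 at 1 day and −0.12 at 2 days against control. The ratio of summed reads to control was 0.967 (0.932 to 1.003) at 1 day and 0.92 (0.884 to 0.957) at 2 days. Smad5 thus did not share the fall of Smad1 by the call rule. Its intron reads did differ in share, at 5.65% and 5.7% in the 2-day runs, against 9.35% and 8.72% in the control runs. The 2-day share was 0.633 of the control share. Among 5859 genes with enough reads, the median of this ratio was 0.933, and 4.6% had a lower one. The log2 fold at 2 days against control was −0.07 on the exon part and −0.78 on the intron part of the reads. Smad5 overlaps the provisional genes Gm27271, Gm27301 and Gm27834 on its own strand, and Gm27301 shares exon bases with it.

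As the Smad1 and Smad5 transcripts parted, the DNA just before their starts is shown, from RefSeq on GRCm38.p6, each read 5′ to 3′ on the gene's own strand. Windows of 250 bases before the RefSeq start were searched on both strands for 3 short motifs, which are capitalised where found. These were GGCGCC, a site class bound by SMAD1 and SMAD5, held by 9.6% of 32851 promoter windows; CAGAC, the SMAD3 and SMAD4 binding element, held by 42.2%; and the E-box CANNTG, held by 66.2%. For Smad1 the 160 bases that precede the gene's start in the files are printed, at chr8:79399519-79399678 (minus strand), and for Smad5 the whole window, at chr13:56702760-56703009 (plus strand).
Smad1: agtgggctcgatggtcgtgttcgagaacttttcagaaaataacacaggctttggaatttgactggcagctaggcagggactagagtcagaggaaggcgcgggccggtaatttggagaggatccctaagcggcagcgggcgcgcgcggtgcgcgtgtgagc
Smad5: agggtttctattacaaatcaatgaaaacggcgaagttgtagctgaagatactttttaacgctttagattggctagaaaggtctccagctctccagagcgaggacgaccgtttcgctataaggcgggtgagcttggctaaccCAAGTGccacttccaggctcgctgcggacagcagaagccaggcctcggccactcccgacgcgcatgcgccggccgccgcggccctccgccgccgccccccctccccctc
The Smad1 window had no match to any of the 3, and the Smad5 window shown had 1 E-box, CAAGTG, 109 bases before the start. Smad5 has other RefSeq starts further into the gene. The window of 1 of these held GGCGCC, 19 bases before its start, and that of another CAGAC, 21 bases before it. The GC content was 63.6% for the Smad1 window and 60% for the Smad5 window, against a median of 52.4% over all windows. A match or its lack describes these letters alone.

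**Figure D2:**
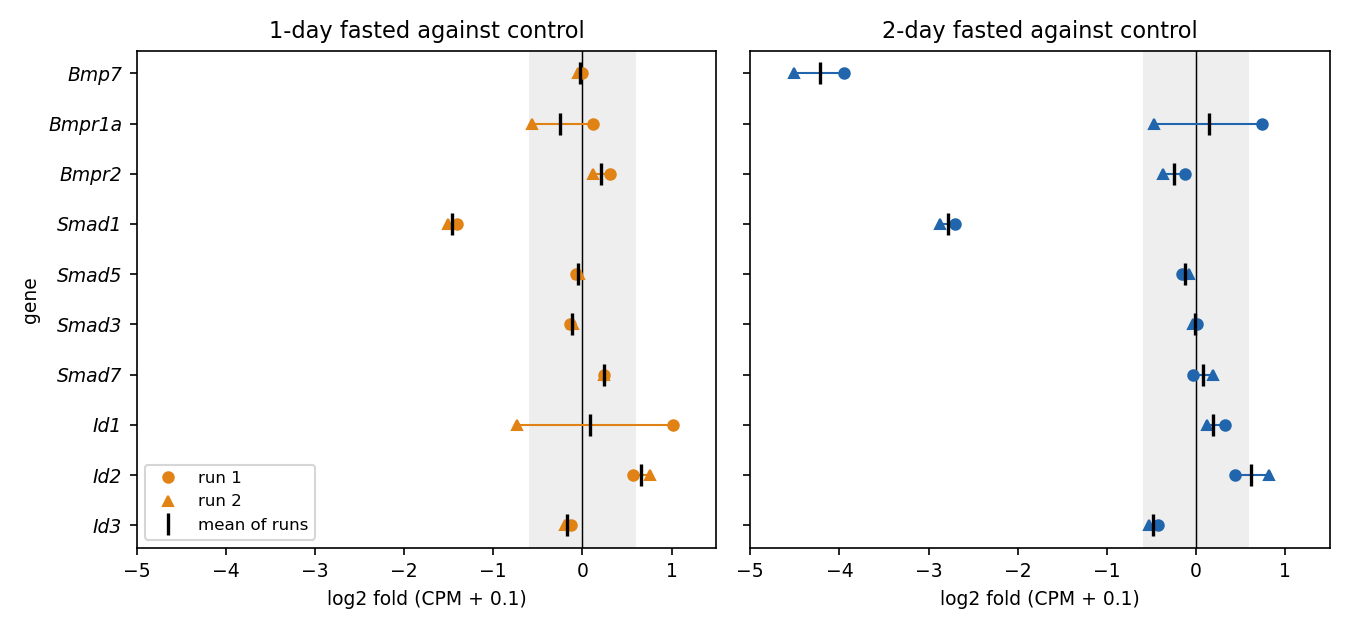
Log2 fold of each of the 10 genes against control at 1 day (left) and at 2 days (right); circles are run 1, triangles run 2, the black bar the mean of runs and the grey band folds under 1.5. Smad1 lies outside the band in both panels and Bmp7 only at 2 days, while Id1 and Bmpr1a, with at most 31 reads in a group, have runs on both sides of 0 in at least 1 panel.

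Because SMAD1 and SMAD5 act in the same branch, their transcripts were also added up per length, together with the third member Smad9, which had few reads. The sum was 13.5 and 12.98 RPKM in control, 11.6 and 11.3 RPKM at 1 day, and 10.4 and 10.6 RPKM at 2 days. Smad1 made up 18.2% and 17.8% of it in control, 7.97% and 7.15% after 1 day, and 3.56% and 2.94% after 2 days. Smad5 held most of the rest, from 81.2% in control run 1 to 96.5% in 2-day run 2. The pool of BMP-branch SMAD transcripts was therefore lower by much less than Smad1 itself, and nearly all of it was Smad5 at 2 days.

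**Figure D3:**
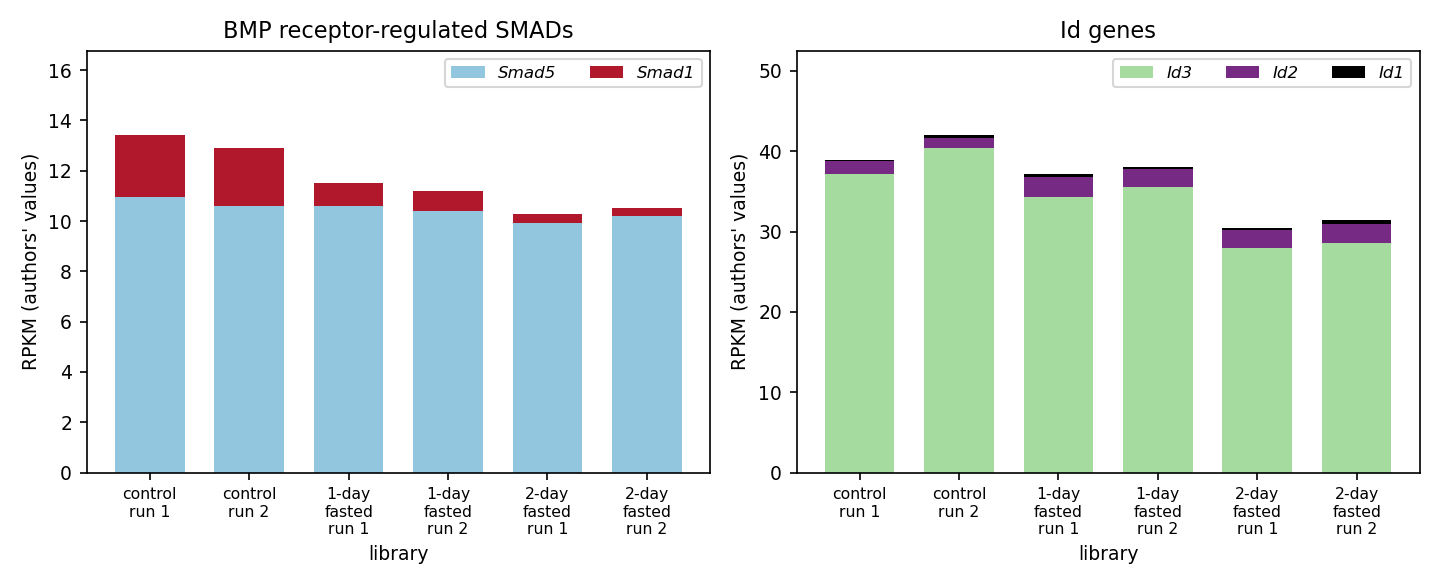
Stacked RPKM (authors' values) of Smad5 and Smad1 (left) and of Id3, Id2 and Id1 (right) in each library, in the order control, 1 day, 2 days. The Smad1 segment shrinks at each fasting time over a nearly level Smad5, and the Id stack, mostly Id3, is lowest in the 2-day libraries, at 30.5 and 31.4 RPKM.

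Smad3, a transducer of the TGF-beta and activin branch, had 87.7 and 90.1 CPM at 1 day and 97.1 and 94.95 CPM at 2 days, against 96.4 and 97.0 CPM in control. The 1-day libraries are slightly below the others, with a log2 fold of −0.12 at 1 day and −0.01 at 2 days against control. The interval of the 2-day ratio, 0.96 to 1.03, bounds the counting error closely. Smad3 made up 54.9% and 53.9% of the summed RPKM of Smad2 and Smad3 at 2 days, against 50% and 50.4% in control. Smad7 encodes the inhibitory SMAD that is itself induced by TGF-beta family signals. It stood at 28.9 and 28.0 CPM at 1 day and 23.9 and 27.0 CPM at 2 days, against 24.4 and 23.6 CPM in control. The 1-day libraries are the highest, at a log2 fold of 0.24 and a ratio of 1.19 (1.11 to 1.27) against control, which is under the call threshold. At 2 days the runs lie on either side of control, with log2 folds of −0.03 and 0.19. The intron share of Smad7 was 9.48% at 1 day and 7.59% at 2 days, against 10.6% in control.

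The intron shares of genes at large differed as well, which bears on those of Smad5 and Smad7. Over 9246 genes with at least 100 reads in every library, the median share was 7.56% and 7.6% at 1 day and 6.44% and 6.42% at 2 days, against 7.02% and 7.03% in control. What sets this share was not tested.

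The Id genes differed from each other in level and in direction. Id3, on chromosome 4 from 136143497 to 136145755 (plus strand), was at 71.4 and 77.6 CPM in control, 65.2 and 67.6 CPM at 1 day, and 53.0 and 53.8 CPM at 2 days. The groups do not overlap and are ordered by time of fasting, yet no step reached 1.5-fold. The log2 fold was −0.17 at 1 day against control, −0.48 at 2 days against control (−0.43 and −0.53 in the runs) and −0.31 at 2 days against 1 day. At 2 days Id3 was 1.42-fold below control in summed reads (1.35 to 1.48), and 15.1% of all genes had a lower log2 fold.

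Id2, on chromosome 12 from 25093801 to 25096092 (minus strand), had higher values in the fasted groups. Its level was 2.30 and 1.74 CPM in control, 3.47 and 3.02 CPM at 1 day, and 3.17 and 3.16 CPM at 2 days. All 4 fasted libraries lie above both control libraries. The ratio to control was 1.65 (1.32 to 2.06) at 1 day and 1.63 (1.29 to 2.07) at 2 days. It was not called, since run 1 missed 1.5-fold, with log2 folds of 0.57 at 1 day and 0.44 at 2 days, where run 2 gave 0.76 and 0.82. With no filter on low counts before scaling, Id2 was called at 1 day. Without control run 1 it was called at 1 day (0.86) and at 2 days (0.82), and without 2-day run 1 at 2 days (0.62). Other cells also use Id2, natural killer cells among them. The NK genes Ncr1, Klrb1c and Klrd1 were called higher at 1 day against control, with log2 folds of 2.21, 2 and 1.37. They stood at 1.01, 0.61 and 0.41 at 2 days, not called, with Klrd1 at −0.12 in run 1. These 3 genes had only 8, 16 and 20 reads in control. In the same list Nkg7 and Il2rb were not called at 1 day (0.35 and 0.42). At 2 days Nkg7 was at −0.40, not called, and Il2rb was lower (−0.98). Gzmb did not pass the filter on low counts, at 0 reads in control and at most 0.158 CPM in any library. The summed level of all 11 T and NK cell genes was 11.3 and 10.96 CPM at 1 day and 4.49 and 4.58 CPM at 2 days, against 7.29 and 7.18 CPM in control. Of the 10 that were tested, 4 were higher and 1 lower at 1 day, and 0 higher and 4 lower at 2 days. The 4 lower at 2 days were Cd3e, Cd3g, Cd8a and Il2rb. Over all genes the shares were 4.3% higher and 2.79% lower at 1 day, and 9.52% and 10.1% at 2 days. The part of these cells in the Id2 values was not tested.
The Id2 window of 250 bases, at chr12:25096093-25096342 (minus strand, GRCm38.p6), is shown because it is the 1 window of an Id gene that lies wholly before the start of the gene in the files and holds a SMAD motif. The first capitals mark GGCGCC, 231 bases before the start, and the second an E-box, CAGCTG, 196 bases before it.
Id2: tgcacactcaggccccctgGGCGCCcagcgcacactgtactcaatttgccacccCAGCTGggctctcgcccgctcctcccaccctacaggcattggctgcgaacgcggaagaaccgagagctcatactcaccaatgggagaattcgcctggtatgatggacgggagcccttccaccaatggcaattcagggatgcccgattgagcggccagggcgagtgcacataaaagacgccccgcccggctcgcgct
Among the other windows searched, GGCGCC was also found in those of Bmpr1a and Bmpr2 and in another of the Smad5 starts, and CAGAC or its reverse GTCTG at 2 places in that of Id3 and at 1 in a further Smad5 window. The Smad3 window had no match to the 3 motifs.

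Id1, a classical BMP target in many cell types, was barely present. It had 24 control reads, 24 reads at 1 day and 19 reads at 2 days, at 0.174 to 0.526 CPM across the 6 libraries. The ratio to control was 0.89 (0.484 to 1.64) at 1 day and 0.919 (0.476 to 1.75) at 2 days, and a change within these intervals was not detectable at this depth. The mean of the runs gave log2 folds of 0.09 and 0.19, on the other side of no change. Without control run 2, Id1 was called higher at 1 day, at 0.72, by the looser rule and against 4 reads in control run 1. Id4, the remaining Id gene, had 2 control reads, 1 read at 1 day and 1 read at 2 days. Summed per length, the Id genes were at 38.9 and 42.0 RPKM in control, 37.2 and 38.0 RPKM at 1 day, and 30.5 and 31.4 RPKM at 2 days. Id3 made up 91.08% to 95.99% of this sum in every library.

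Id proteins bind E proteins. Of 5 genes of E proteins and their partners, 0 were called at 1 day and 2 were lower at 2 days against control, where 7.09% and 19.6% of all genes were called. Tcf3, which encodes the E2A proteins that B-cell development depends on, fell to 471 and 470 CPM at 2 days, against 817 and 835 CPM in control, a log2 fold of −0.81. Tcf4, another E-protein gene, fell to 48.7 and 51.4 CPM, against 78.4 and 77.8 CPM in control (−0.64). The E-protein gene Tcf12 was not called, at a log2 fold of −0.22. The median log2 fold of the 5 was −0.24 at 1 day and −0.49 at 2 days, against control, where that of all genes was 0 and 0.01. Set against Tcf3 in RPKM, the summed Id genes came to 27.7% and 28.3% of the Tcf3 level at 2 days and 20.8% and 21% at 1 day, against 20.7% and 21.8% in control. The Id sum was lower at 2 days, and so was Tcf3, which was lower by more. Tcf12 was lower by less than Id3 at 2 days, at log2 folds of −0.22 and −0.48. The direction of such a share therefore depends on the E-protein gene chosen.

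**Figure D4:**
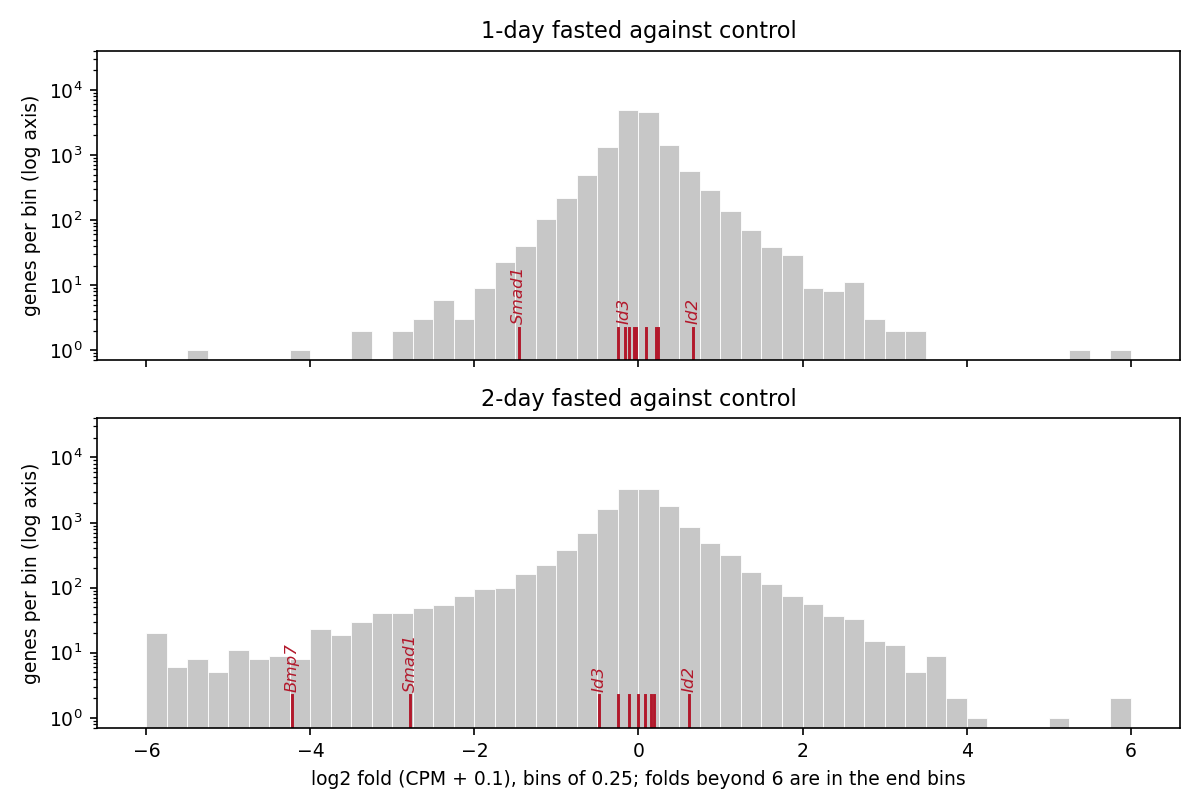
Log2 folds of all 14236 genes tested, in bins of 0.25 with the count on a log axis, at 1 day (top) and 2 days (bottom) against control; folds beyond 6 are in the end bins and red ticks mark the 10 genes. Smad1 lies in the lower tail in both panels and Bmp7 at 2 days, Id2 on the higher side, and the other genes in the central mass.

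The wider pathway was read from lists of TGF-beta family genes. Of 33 ligand genes, 8 had enough reads. At 2 days 2 were lower and 1 higher against control, and at 1 day 2 were lower, both under 1 CPM. That is 3 and 2 of 8, where 19.6% and 7.09% of all genes were called. Gdf11, a ligand of the activin branch, fell at 2 days to 1.84 and 2.21 CPM, against 6.08 and 6.11 CPM in control (log2 fold −1.54), and was at 4.21 and 4.43 CPM at 1 day. Bmp8a, whose reads may be shared with its near copy Bmp8b, rose at 2 days to 0.839 and 1.21 CPM, against 0.391 and 0.406 CPM in control (1.17), on 54 and 26 reads. The median log2 fold of the 8 was −0.26 at 1 day and −0.28 at 2 days, where all genes gave 0 and 0.01.

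Of 19 receptor and co-receptor genes, 12 were tested. At 1 day 1 was higher against control and 0 were lower, and at 2 days 3 were higher and 3 lower. Over all genes 7.09% were called at 1 day and 19.6% at 2 days. Bambi, a pseudoreceptor that blocks BMP and TGF-beta signalling and is itself a target of these pathways, rose at both times, to 9.78 and 9.18 CPM at 1 day and to 12.5 and 11.8 CPM at 2 days, against 6.29 and 5.39 CPM in control (log2 folds 0.69 and 1.04). Tgfbr2, the type II TGF-beta receptor gene, rose at 2 days to 77.3 and 76.6 CPM, against 43.2 and 44.8 CPM in control (0.81). The co-receptor genes Eng and Tgfbr3 fell at 2 days. Eng was at 1.43 and 1.16 CPM, against 2.91 and 2.89 CPM in control (−1.10). Tgfbr3 was at 1.87 and 2.37 CPM, against 2.87 and 3.99 CPM in control (−0.67). Bmpr1b, the other BMP-specific type I receptor gene, had 0 reads in control, 0 at 1 day and 2 at 2 days. Under 1 CPM, Acvrl1 was higher and Acvr1 lower at 2 days against control (0.88 and −0.78). The receptor genes Acvr2a and Acvr2b were not called, at means of 4.77 and 6.87 CPM in control, above Bmpr2 at 2.26 CPM. Over the 12 genes the median fold on the log2 scale was −0.06 at 1 day and −0.10 at 2 days.

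Among all 8 SMAD genes, Smad1 was the only one called in any of the 3 comparisons. Over all genes 7.09% were called at 1 day, 19.6% at 2 days and 14.2% at 2 days against 1 day. The median log2 fold of the 8 was −0.10 at 1 day and −0.19 at 2 days. The shared partner Smad4 was at 75.8 and 77.5 CPM at 2 days, against 74.9 and 72.4 CPM in control, and Smad2 at 51.0 and 52.1 CPM, against 61.6 and 61.2 CPM in control. Of 27 SMAD regulator genes, 0 were called at 1 day, and at 2 days 3 were lower and 0 higher against control, beside 7.09% and 19.6% of all genes. Zfyve9, whose product anchors SMAD2 and SMAD3 at endosomes, fell at 2 days to 0.406 and 0.737 CPM, against 1.52 and 1.74 CPM in control (−1.37). Hipk2, a nuclear kinase that binds SMAD co-repressors, fell to 64.8 and 61.5 CPM, against 103.7 and 101.4 CPM in control (−0.70). The median of the 27 was −0.11 at both times.

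Of 18 genes for secreted antagonists, 5 were tested. At 1 day 2 were higher against control and 0 lower, and at 2 days 2 were higher and 1 lower, with 7.09% and 19.6% called over all genes. Fstl1, a secreted follistatin-like protein, rose to 56.4 and 59.5 CPM at 1 day and to 92.6 and 92.6 CPM at 2 days, against 36.7 and 38.7 CPM in control (0.62 and 1.30). Fstl3, which binds activins, rose at 1 day alone by the call rule, to 2.94 and 3.26 CPM, against 0.521 and 0.406 CPM in control (2.51). At 2 days it was at 0.271 and 0.316 CPM, which is below 1 day by a log2 fold of −3.03. Dand5, of the Cerberus family of antagonists, rose at 2 days to 1.27 and 2.11 CPM, against 0.564 and 0.907 CPM in control (1.10). Crim1, at a mean of 0.992 CPM in control, was the gene lower at 2 days (−1.47), on 17 reads against 70 in control. Over the 5 the median was 0.62 at 1 day and −0.07 at 2 days.

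Of 25 genes that BMP or TGF-beta are known to induce or repress, which include the Id genes and Smad7, 18 were tested. At 1 day 3 were higher and 1 lower against control, and at 2 days 4 were higher and 2 lower. The shares over all genes were 4.3% higher and 2.79% lower at 1 day, and 9.52% higher and 10.1% lower at 2 days. Beside Bambi, Bhlhe40, a helix-loop-helix repressor gene, rose at both times, to 2.66 and 2.81 CPM at 1 day and to 2.65 and 2.58 CPM at 2 days, against 1.09 and 1.36 CPM in control (1.10 and 1.04). Gata2, a blood progenitor transcription factor gene, rose at 1 day to 1.26 and 1.51 CPM, against 0.26 and 0.644 CPM in control (1.43). Tgfbi, a secreted matrix protein gene, rose at 2 days to 5.55 and 4.79 CPM, against 2.52 and 2.98 CPM in control (0.89). Those called lower against control were all under 1 CPM. They were Atoh8 at 1 day (−0.72), and Pmepa1 and Cdkn2b at 2 days (−0.93 and −1.25). Ltbp1, also under 1 CPM, was higher at 2 days (0.94). At 2 days against 1 day 1 of the 18 was higher and 4 lower, beside 5.63% and 8.59% of all genes. The median log2 fold of the 18 was 0.12 at 1 day and 0.11 at 2 days, against 0 and 0.01 over all genes.

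**Figure D5:**
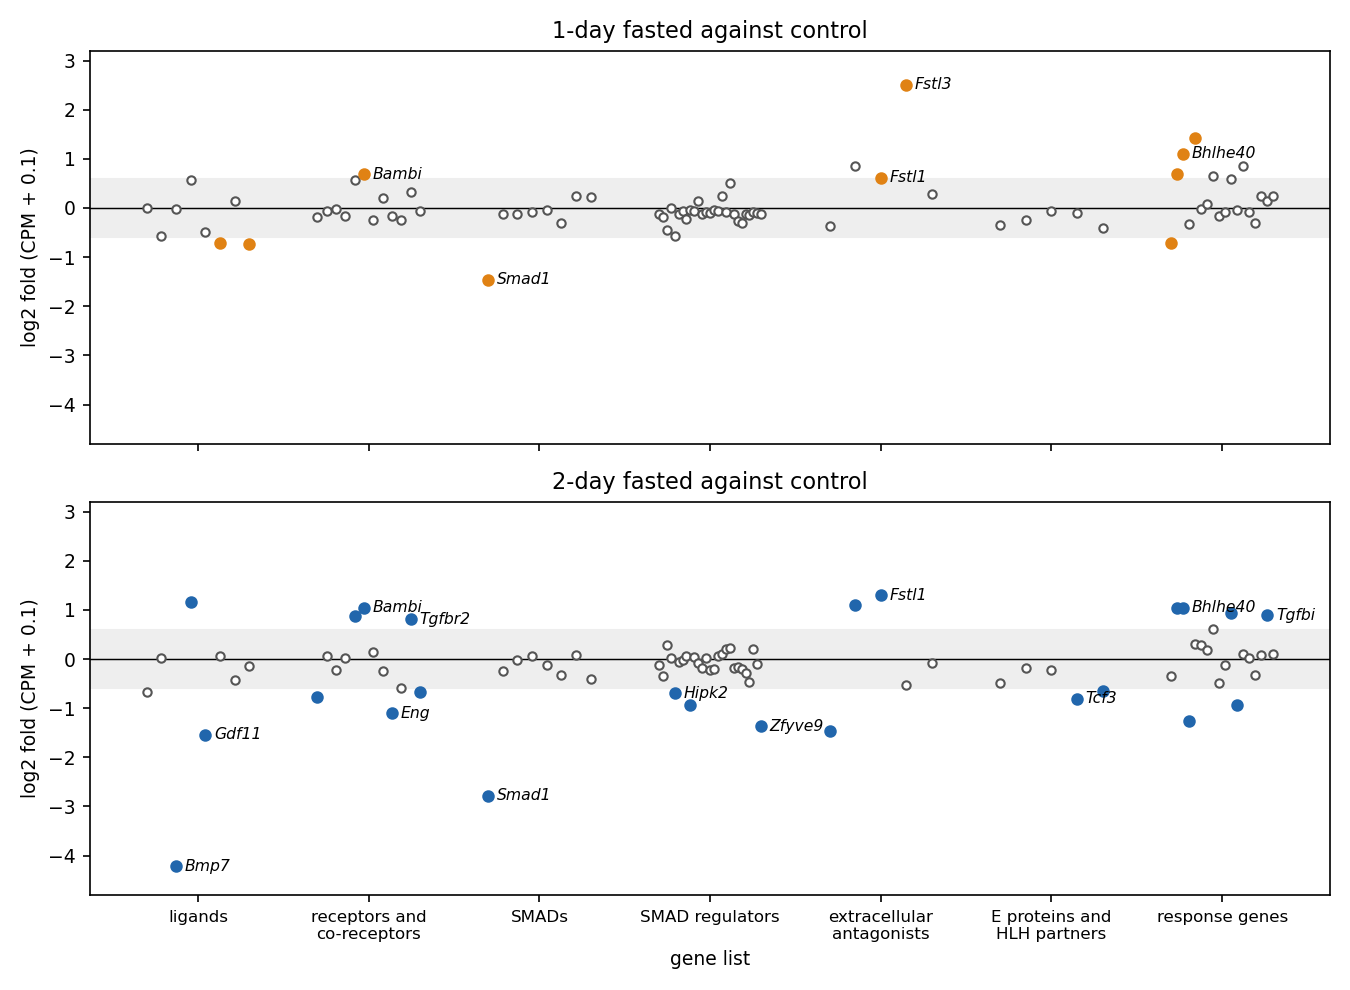
Log2 fold against control of every tested gene in 7 lists of the BMP and TGF-beta pathway, at 1 day (top) and 2 days (bottom); filled points are called, open points are not, and the grey band marks folds under 1.5. Bmp7 and Smad1 are the lowest points of the 2-day panel, and the SMAD and SMAD regulator lists hold few called genes.

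The genes whose pattern came closest to that of Smad1 were sought among 9116 genes with a mean of at least 5 CPM, by the distance over 4 log2 folds (1 day and 2 days against control in each run). They were Plekha8, a lipid transfer protein gene, at a distance of 0.17, the death ligand gene Tnfsf10 (TRAIL) at 0.46, and the methylcytosine dioxygenase gene Tet1 at 0.74. Plekha8 had a mean of 4.45 CPM at 1 day and 1.64 CPM at 2 days, against 12.5 CPM in control. No nearest patterns are given for Bmp7, whose 2-day folds are set by the added 0.1 CPM. Each distance covers 3 samples with 2 runs each.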

How the data were processed

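RNA-seq had been run on 6 libraries of sorted leukaemia cells, 2 each from mice that were 1-day fasted, 2-day fasted and fed. Per the submitters' processing notes, the aligner was TopHat2 and the build mm10. For the counting program, the annotation and the strand setting, the sources used here name none. The deposited files list counts of total and unique reads per gene, exon, junction and intron. The deposited RPKM values are the authors' total gene reads, introns included, scaled by exon length and by mapped reads; they serve here for levels between genes. Run 1 and run 2 use gene tables of different length, which were joined by position (37429 genes) or by name and chromosome (303). Total gene reads were scaled to CPM with TMM factors (edgeR 4.0.16, R 4.3.3), and filterByExpr with a minimum count of 10 kept 14236 genes. Positions overlapped a reference annotation for 99.8% of 34489 named genes.

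Runs of a group lay close to sampling noise and were counted as 1 sample, although the labels title them as replicates and do not say whether they are technical repeats; no test was made. Besides the 10 genes, the text names list genes called at 1.5-fold with at least 1 CPM in a group, and the 3 nearest patterns of Smad1. Some list genes that were not called or were under 1 CPM are named as well. Alternatives were DESeq2 1.42.0 size factors, no filter, exon or unique reads, RPKM, a pseudocount of 1 CPM, a 2-fold threshold and leaving out each run. Genes, lists and rules were chosen with earlier results of these data known. Ebf1 and 1 SMAD regulator gene were not analysed here, and 1 further marker gene is not reported here. RefSeq promoter windows were searched for 7 of the 10 genes.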

Additional observations from a re-analysis of the deposited data

Results flagged for a closer look

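Bmpr2, a type II BMP receptor gene, had opposite directions at the 2 fasting times. The counting intervals of both ratios to control include no change, at 0.915 to 1.42 for 1 day and 0.623 to 1.04 for 2 days. The 1-day libraries of Bmpr2 lay above those of control and its 2-day libraries below them, each in both runs. The log2 fold was 0.21 at 1 day and −0.25 at 2 days against control, and −0.46 at 2 days against 1 day. This difference was not tested, since each group is counted as 1 sample. It rests on 193 reads at 1 day and 105 at 2 days, against 151 in control, and no value reached the 1.5-fold threshold.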

How the results depend on the processing

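Smad1 was called lower in all 3 comparisons, and Bmp7 at 2 days in both of its comparisons, under every alternative run for that comparison. Of 300 recomputed log2 folds of the 10 genes, 281 were counted as within the counting interval and 19 as moved beyond it. None reversed the direction of a call, though some alternatives added calls, as given below. Most of the 19 were Bmp7 at 2 days. Its main fold, with 0.1 CPM added, already lies outside the interval of its ratio. Shifts as small as that to −4.17 with DESeq2 size factors thus counted as moves, and the count says little for Bmp7. The size of the Bmp7 fold depends on the value added to each level: −4.22 became −1.57 with 1 CPM added and −2.46 with RPKM as deposited, at 2 days against control. Smad1 then gave −2.36 and −2.50.

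The number of the 10 genes called at 1 day was 1, and 2 with no filter on low counts (Id2 added). With a run left out, only the mean and the remaining run had to pass, a looser rule under which more genes can be called. Leaving out a run gave 1 to 2 at 1 day, with Id2 added without control run 1 and Id1 without control run 2. It gave 2 to 3 at 2 days against control, with Id2 added without control run 1 or 2-day run 1, and 2 to 3 at 2 days against 1 day, with Bmpr1a added without 2-day run 2. Of all genes, 1009 were called at 1 day, and 467 with 1 CPM added, 324 at 2-fold and 1441 to 1728 without a run (1728 without control run 2, 1621 without 1-day run 2). At 2 days 2796 were called, and 1448 at 2-fold. At 2 days against 1 day 2024 were called, and 1199 with 1 CPM added and 953 at 2-fold.

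No paired analysis was possible because the results come from no test: the libraries of a group, close to sampling noise, were counted as 1 sample. Folds within each run stand beside the mean in its place. Depth limits Id1 and Bmpr1a, with 19 to 31 reads in a group, and 1 sample a group limits every comparison.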
